A study of Mus musculus with 2 samples.

Results

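The DNA replication genes examined here are 45 listed genes that build and run the replication fork. They were chosen by name, with no measured value, and all 45 were found in a RefSeq gene table of assembly GRCm38.p6, whose coordinates are those of mm10. Chromatin at these genes was compared between 1 control and 1 Brd9 knockout library of mouse fetal liver cells by ATAC-seq, an assay in which a transposase cuts DNA where it is open. Both libraries came from 150000 sorted C57BL/6 cells of E14.5 embryos, negative for lineage markers, positive for c-Kit and CD45.2. Control cells (replicate 1) were Brd9fl/fl without Cre, and knockout cells (replicate 2) were Vav1-iCre Brd9fl/fl, so both carried floxed Brd9 and only the knockout cells carried the Cre. Vav1 regulatory DNA directs the Cre to blood cells, and Brd9 encodes a bromodomain protein of the non-canonical BAF remodelling complex. With 1 library per genotype no value could be checked against a replicate and no test was made, and genotype cannot be told apart from any other difference between the libraries. In such bulk samples, fewer cells with an open region and less opening per cell cannot be told apart either.

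Replication starts in G1 phase, when the origin recognition complex (ORC), CDC6 and CDT1 load the MCM2-7 helicase onto DNA, a step called licensing. In S phase CDC45 and GINS turn MCM2-7 into the active helicase, DNA polymerase alpha and primase lay primers, and polymerases epsilon and delta extend them with the PCNA clamp, which replication factor C (RFC) loads. Many of these genes are known targets of E2F factors, and c-Kit-positive fetal liver progenitors are known to divide rapidly. The 45 genes were sorted by role into licensing (15), helicase activation (6), polymerases and primase (9), clamp and lagging strand (11) and nucleotide supply (4).

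The promoters below show part of what the regions of these genes hold. Each is the 250 bases before a start site listed by RefSeq (GRCm38.p6), read 5′ to 3′ on the strand of the gene. Capitals mark matches, on either strand, to the E2F motif (TTTCCCGC, TTTCGCGC, TTTGCCGC or TTTGGCGC) and to the CCAAT box (CCAAT). The first set shows 4 of the 9 members with an E2F match. It has Orc1 (chr4:108579204-108579453, plus strand), Mcm5 (chr8:75109259-75109508, plus), Mcm6 (chr1:128359706-128359955, minus) and Mcm7 (chr5:138171884-138172133, minus, 1 of 2 listed starts). In Mcm5 and in Mcm6, a pair of E2F matches on opposite strands overlap each other.
Orc1: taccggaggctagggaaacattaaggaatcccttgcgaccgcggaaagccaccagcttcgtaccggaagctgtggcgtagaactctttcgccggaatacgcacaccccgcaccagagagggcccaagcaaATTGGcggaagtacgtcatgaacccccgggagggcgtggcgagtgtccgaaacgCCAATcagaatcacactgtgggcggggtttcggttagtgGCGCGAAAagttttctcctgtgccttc
Mcm5: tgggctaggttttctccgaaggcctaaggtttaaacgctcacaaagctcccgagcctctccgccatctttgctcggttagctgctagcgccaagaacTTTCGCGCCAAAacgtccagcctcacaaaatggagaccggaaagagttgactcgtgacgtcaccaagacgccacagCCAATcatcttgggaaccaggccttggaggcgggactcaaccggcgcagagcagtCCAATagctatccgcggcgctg
Mcm6: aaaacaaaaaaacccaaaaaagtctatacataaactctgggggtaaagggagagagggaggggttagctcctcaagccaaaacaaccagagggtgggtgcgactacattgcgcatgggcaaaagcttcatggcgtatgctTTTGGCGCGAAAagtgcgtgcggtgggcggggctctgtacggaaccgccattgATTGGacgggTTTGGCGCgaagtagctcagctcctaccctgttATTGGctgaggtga
Mcm7: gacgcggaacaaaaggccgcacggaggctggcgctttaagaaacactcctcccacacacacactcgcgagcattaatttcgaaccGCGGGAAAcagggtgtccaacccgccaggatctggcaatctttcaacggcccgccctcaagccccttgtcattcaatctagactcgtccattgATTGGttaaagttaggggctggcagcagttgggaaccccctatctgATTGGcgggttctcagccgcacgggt

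The second set holds no E2F match. Pcna (chr2:132253181-132253430, minus) is shown as a strongly accessible promoter with like scaled counts in both libraries. Orc2 (chr1:58505110-58505359, minus, 1 of 2 listed starts), Pola2 (chr19:5964207-5964456, minus), Rfc4 (chr16:23127731-23127980, minus) and Rpa1 (chr11:75348384-75348633, minus) are 4 of the 7 members called lower in the knockout library, as given further on.
Pcna: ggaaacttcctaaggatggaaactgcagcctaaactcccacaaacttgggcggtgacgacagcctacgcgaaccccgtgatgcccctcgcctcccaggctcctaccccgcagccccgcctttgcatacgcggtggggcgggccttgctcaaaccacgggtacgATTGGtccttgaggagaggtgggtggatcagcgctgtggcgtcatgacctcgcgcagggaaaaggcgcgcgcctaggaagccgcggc
Orc2: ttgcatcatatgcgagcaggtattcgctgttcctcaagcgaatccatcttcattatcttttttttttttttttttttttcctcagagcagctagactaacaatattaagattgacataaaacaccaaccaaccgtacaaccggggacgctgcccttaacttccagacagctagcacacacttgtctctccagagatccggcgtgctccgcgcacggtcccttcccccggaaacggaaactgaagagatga
Pola2: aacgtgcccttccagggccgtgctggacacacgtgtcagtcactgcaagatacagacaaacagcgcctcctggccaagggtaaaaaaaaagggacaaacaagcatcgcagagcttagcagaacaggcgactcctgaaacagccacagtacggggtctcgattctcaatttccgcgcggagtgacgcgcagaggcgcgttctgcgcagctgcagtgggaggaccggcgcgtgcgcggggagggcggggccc
Rfc4: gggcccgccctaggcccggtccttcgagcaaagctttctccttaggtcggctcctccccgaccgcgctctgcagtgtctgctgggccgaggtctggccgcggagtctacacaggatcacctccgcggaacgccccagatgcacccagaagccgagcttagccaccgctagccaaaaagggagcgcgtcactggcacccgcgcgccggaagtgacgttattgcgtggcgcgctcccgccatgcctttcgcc
Rpa1: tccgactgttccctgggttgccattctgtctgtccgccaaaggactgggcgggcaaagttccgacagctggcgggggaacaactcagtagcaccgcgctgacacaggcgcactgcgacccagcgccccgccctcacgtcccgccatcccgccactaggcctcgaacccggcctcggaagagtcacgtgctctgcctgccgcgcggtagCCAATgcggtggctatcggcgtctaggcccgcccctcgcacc

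An E2F match stood in 9 of the 37 members with a listed start (24.3%). Over all 17492 protein-coding genes with a listed start the share was 2.43%, and over the 8435 of them with a gene-end region in both libraries it was 3.9%. Of 43 related replication genes with a listed start, from a further list described below, 8 had a match (18.6%), so the high share is not particular to the members. The 9 were Orc1, Orc3, Cdc6, Mcm5, Mcm6, Mcm7, Gins3, Pola1 and Rfc3. They include licensing, helicase, polymerase and clamp loader genes. None of the 4 nucleotide supply genes had a match, but 4 genes are too few to read this as a trait of that role. A CCAAT box was found in 22 members (59.5%, against 38.2% of genes with a region in both libraries). The GC box GGGCGG was found in 26 (70.3% against 62.2%) and the CHR element TTTGAA in 4 (10.8% against 10.2%). The NRF1 palindrome was found in 0 members and in 1.93% of genes with a region in both libraries. Each gene was searched at its outermost listed start. Gmnn, Mcm4, Gins1, Gins2, Gins4, Prim2, Pole and Rfc2 were not searched. A match is a run of letters and does not show that a factor binds.

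**Figure D1:**
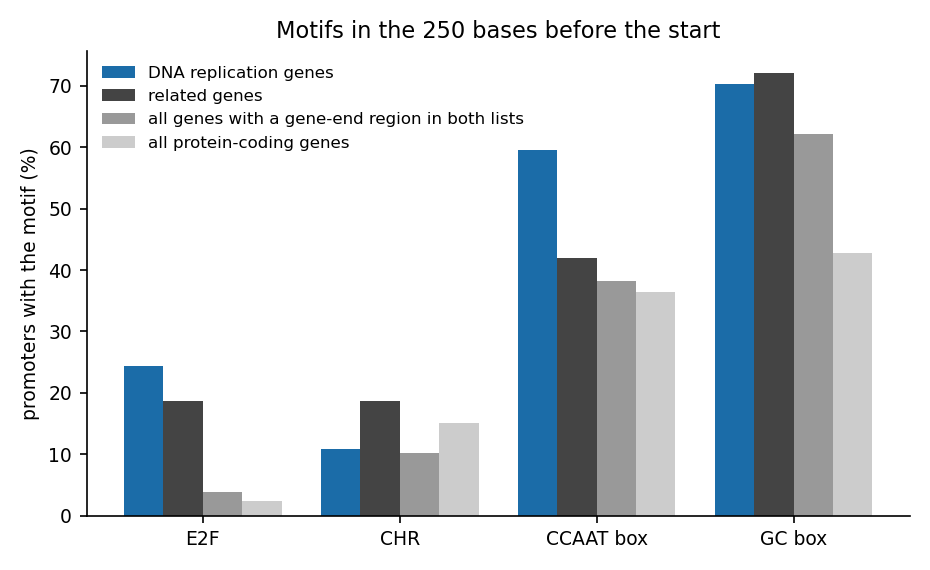
Share of promoters (%) with each motif in the 250 bases before the start, for the 37 DNA replication genes, the 43 related genes, the 8435 genes with a gene-end region in both lists and all 17492 protein-coding genes with a listed start. The E2F bar of the replication genes stands at 24.3%, that of the related genes at 18.6% and that of all genes at 2.43%.

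The deposited lists held 25330 control and 22348 knockout peaks, which merged into 29076 regions. The number of reads covering each peak summit was recovered from the deposited values, and these summit reads are the level used below. Relative to the control, background depth in the knockout library was 0.640, so a scaled ratio is knockout over control summit reads divided by 0.640. Its 95% interval is an exact conditional binomial one and covers counting error only. Of the markers of the sorted cells, Kit, Myb, Runx1, Gfi1b and Lmo2 had a gene-end region in both lists, and Cd34 and Gata2 had none. Of the lineage genes reported, Cd3e, Cd8a, Ms4a1, Itgam, Ly6g and Adgre1 had none in either list, and Cd4 had one in the control list alone. The hepatocyte genes Alb, Afp and Ttr, the endothelial genes Cdh5 and Pecam1 and the stromal gene Pdgfrb had none in either list. Apoa1 and Col1a1 had one in both lists, with 26 and 29 control reads, Col1a2 had one in the control list alone, and Kdr had a separate one in each. The 5 markers of the sorted cells had 50 to 109 control and 20 to 65 knockout reads, with the lowest scaled ratio, 0.504, at Lmo2. The part of such differences in the values below was not tested.

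Nearly every DNA replication gene had accessible chromatin at a gene end in both libraries. A gene-end region is a merged region within 1 kb of either outer end of a gene. Of the 45 genes, 42 had one in both lists and 3 (Orc1, Orc4 and Rfc1) in neither, whereas 47.4% of all 21887 protein-coding genes had one in both. For those 3 genes the outer end in the table lies away from the listed start, and all 3 had a strong region at the start itself, with 183 control and 97 knockout reads for Orc1, 318 and 204 for Orc4, and 183 and 101 for Rfc1. Of the 42 regions, 14 also lay within 1 kb of an end of another protein-coding gene (33.3%, against 30.8% over all genes), such as Mcm4 with Prkdc, Pcna with Cds2 and Mcm7 with Ap4m1, and the reads there cannot be assigned to 1 of the genes.

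The levels spanned a wide range. Control summit reads ran from 23 at Prim1 to 803 at Gins2 with a median of 154, and knockout reads from 7 to 519 with a median of 98.5. Over all 10376 genes with a gene-end region in both lists the medians were 120 and 74. Of the 42 members, 29 lay above the control median of all genes. Gins2, Pcna (730 control reads), Mcm4 (573), Mcm7 (445) and Gmnn (434) were the strongest, and Gmnn, the lowest of these 5, stood at percentile 92.7 of all genes in the control library. Prim1, Gins3 (32), Lig1 (33), Pola1 (53) and Tk1 (53) were the weakest. Of the 37 members with a listed start and a region there, 34 had the control summit and 33 the knockout summit within 200 bp of a start, at median distances of 75 and 70 bp.

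**Figure D2:**
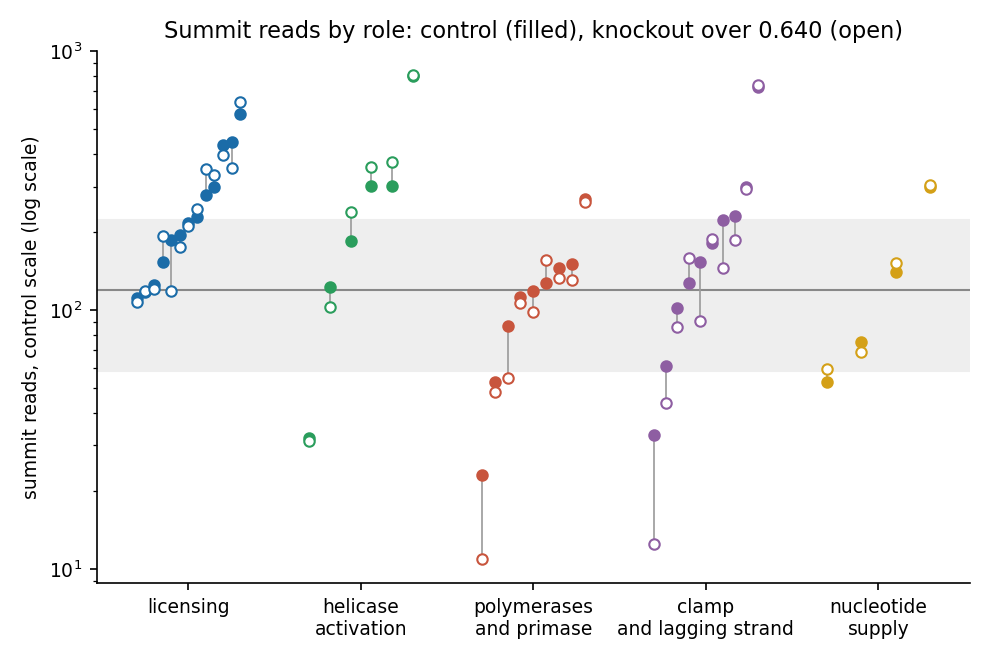
Summit reads (log scale) of the 42 members by role, with control counts as filled and knockout counts divided by 0.640 as open circles, 1 pair per gene. The grey band and line mark the middle 50% and the median (120 reads) of control counts over all genes; Gins2 and Pcna stand highest in both libraries.

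Between the libraries most members had like scaled counts. The median log2 scaled ratio over the 42 was −0.05, against 0.01 over all genes. Of the members 25 lay below 0 (59.5%, against 48.5% of all genes) and 17 above. A ratio at or past 1.3-fold was taken as called. Lower in the knockout were 7 members (16.7%): Orc2, Pola2, Prim1, Rfc2, Rfc4, Rpa1 and Lig1. Of all genes 11.8% were called lower and 12.2% higher. No member was called higher, but Gins1 (log2 scaled ratio 0.38) equalled 1.3-fold to the digits shown, and with the depth factor rounded to 0.640 it was called, so the count is 0 or 1 by rounding. On the lower side Rfc2, at 0.717, lay just inside and Mcm7, at 0.793, just outside. The counting interval lay below 1 for 6 members (14.3%, against 7.59% of all genes) and above 1 for 3 members (7.14%, against 9.32%). Of the 7 called lower, 4 had under 100 control reads, and they lie in the lowest 2 of 5 equal bins of all genes by total reads, where 16.1% and 18.3% of genes were called lower. Over the 34 members with at least 100 control reads the median was −0.04 and 3 were called lower, a split made after the values had been seen.

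**Figure D3:**
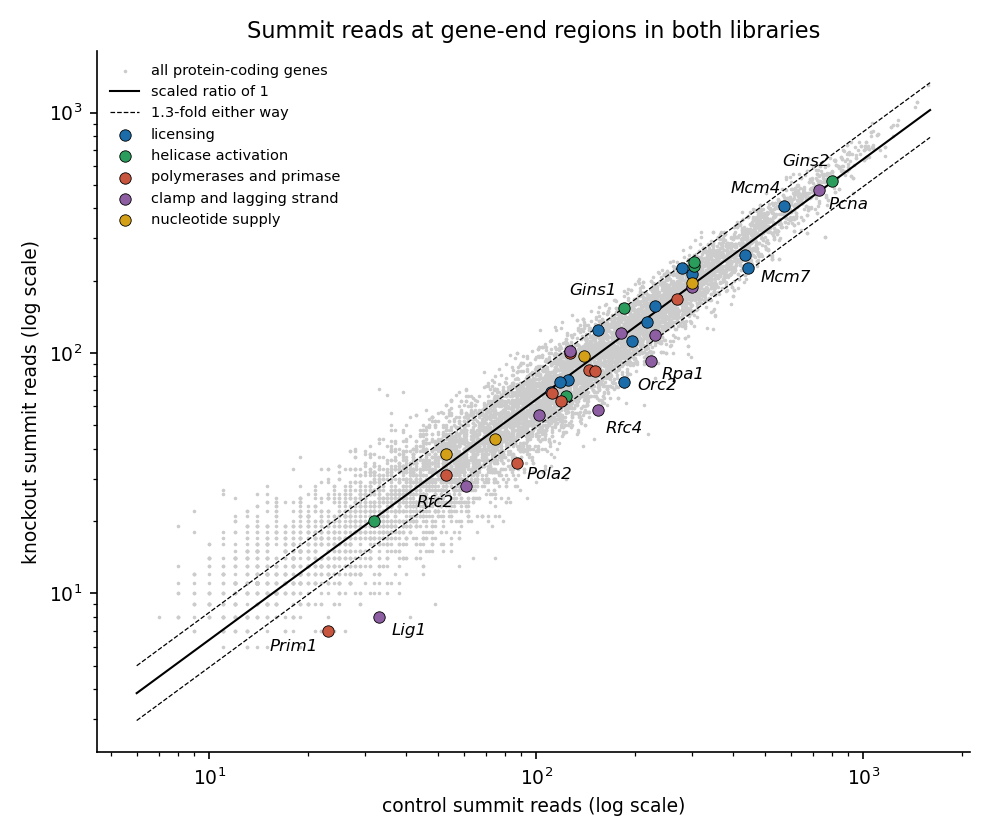
Control and knockout summit reads (both log scales) at 1 gene-end region per gene, for all 10376 protein-coding genes (grey) and the 42 DNA replication genes (coloured by role). The solid line is a scaled ratio of 1 and the dashed lines are 1.3-fold either way; Lig1, Prim1, Rfc4, Pola2, Orc2, Rpa1 and Rfc2 lie below the lower line.

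Among licensing genes 1 of 13 with a ratio was called lower, and the median log2 scaled ratio was −0.04. Orc2, a subunit of the origin recognition complex, had 186 control summit reads (95% Poisson interval 160 to 215) and 76 knockout reads at chromosome 1, 58503143 to 58505341. Its scaled ratio was 0.638 (0.482 to 0.838), and its region, at 2199 bp, was the widest of all members. The other measured subunits had ratios nearer to 1, but only the interval of Orc6 (0.933 to 1.34) did not overlap that of Orc2. Orc3 had 125 and 77 reads (ratio 0.962), Orc5 118 and 76 (1.01) and Orc6 299 and 214 (1.12), each with an interval that included 1. At their start sites Orc1, the ATPase of the complex, had a ratio of 0.828 (0.640 to 1.06) and Orc4, a related subunit, an interval of 0.836 to 1.20.

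The loaders and their inhibitor stood close to 1. Cdc6, which acts with ORC in loading MCM2-7, had 196 control and 112 knockout reads, a scaled ratio of 0.892 (0.701 to 1.13). Cdt1, its partner in loading, had 218 and 135 reads (0.967, 0.774 to 1.20). Gmnn, which encodes geminin, the inhibitor of CDT1, had 434 and 255 reads (0.918, 0.783 to 1.07).

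The 6 helicase subunit genes lay on both sides of 1, with a median log2 scaled ratio of 0.12. Mcm5 had 279 control and 225 knockout reads at chromosome 8, 75108668 to 75110011, a ratio of 1.26 with an interval above 1 (1.05 to 1.51). Mcm3 had the same ratio from fewer reads, 154 and 124, and its interval reached 0.985. Mcm7 had 445 and 226 reads at chromosome 5, 138171005 to 138172492, a ratio of 0.793 (0.673 to 0.933). Mcm5 and Mcm7 had the highest and the lowest ratio of the 6, and their intervals, which cover counting error only, did not overlap. How often the intervals of 2 genes do not overlap over all genes was not counted. The Mcm7 region also lies at an end of Ap4m1. Mcm4 (573 and 409), Mcm6 (230 and 157) and Mcm2 (111 and 69 reads) had ratios of 1.11, 1.07 and 0.971 with intervals that included 1.

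Of the helicase activation genes 4 of 6 had a ratio above 1, with 2 intervals above 1 and Gins1 at the threshold. Over all genes 48.5% had a ratio below 1, and 9.32% had an interval above 1. Gins1 had 185 control and 154 knockout reads at chromosome 2, 150909472 to 150910084, a log2 scaled ratio of 0.38 and an interval of the ratio from 1.04 to 1.62. Gins4 had 303 and 239 reads at chromosome 8, 23237230 to 23238071, a ratio of 1.23 (1.04 to 1.46). Their partners in the GINS tetramer were at 1.01 (Gins2, 803 and 519 reads) and 0.976 (Gins3, 32 and 20 reads, interval 0.529 to 1.76). Gins2 and Gins3 thus had the most and the fewest reads of this role, although their proteins belong to the same complex. Cdc45, the helicase cofactor, had 303 and 229 reads (1.18, 0.990 to 1.41), and Mcm10, which acts as the helicase starts, had 123 and 66 (0.838, 0.612 to 1.14). The median log2 scaled ratio of the 6 genes was 0.13.

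Among polymerase and primase genes 8 of 9 had a ratio below 1, against 48.5% of all genes, but only the interval of Pola2 lay below 1. The median log2 scaled ratio was −0.13, and 2 were called lower. Both belong to the complex that starts each DNA strand. Pola2, the accessory subunit of polymerase alpha, had 87 control and 35 knockout reads at chromosome 19, 5963791 to 5964490, a ratio of 0.628 (0.412 to 0.940). Prim1, the catalytic primase subunit, had 23 and 7 reads at chromosome 10, 128015098 to 128015763, a ratio of 0.475 with a wide interval (0.172 to 1.14). The other 2 subunits, Pola1 (53 and 31 reads, 0.913) and Prim2 (119 and 63, 0.827), had intervals that included 1. Pola1 lies on chromosome X, where the 287 measured genes had a median log2 ratio of −0.07. Sex-linked genes differed between the lists as well, with regions of the Y-linked Ddx3y and Uty in the knockout list alone (33 and 18 reads) and 86 control against 33 knockout reads at Xist. The part of this difference in the Pola1 value was not tested.

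Genes of the replicative polymerases stood nearer to 1. Pold1, the catalytic subunit of polymerase delta, had 269 control and 167 knockout reads (0.970, 0.794 to 1.18), the most of this role. Its accessory subunits Pold2 (145 and 85) and Pold3 (151 and 84) had ratios of 0.915 and 0.869. Pole, the catalytic subunit of polymerase epsilon, had 127 and 100 reads and the only ratio of the role above 1, at 1.23 (0.937 to 1.61), while Pole2 had 112 and 68 (0.948). All of these intervals included 1.

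The clamp and lagging strand genes held 4 of the 7 members called lower, and their median log2 scaled ratio was −0.28 over 10 genes. With Lig1 read at its start site in place of its 3′ end, the median was −0.16 and 3 were called lower. Pcna itself, the sliding clamp, had 730 control and 475 knockout reads at chromosome 2, 132252605 to 132253490, a ratio of 1.02 (0.903 to 1.14). The ratios of its loader genes lay on both sides of 1. Rfc4 had 154 and 58 reads at chromosome 16, 23127449 to 23128309, a ratio of 0.588 (0.427 to 0.800). Rfc5 had 127 control and 102 knockout reads, a ratio of 1.25 (0.957 to 1.64). Rfc4 and Rfc5 had the lowest and the highest ratio of the loader genes, and their counting intervals did not overlap. Rfc2 had 61 and 28 reads (0.717, 0.441 to 1.14) and Rfc3 102 and 55 (0.842, 0.595 to 1.18). Rfc1, the large subunit, had 0.862 (0.669 to 1.10) at its start site. A second region at the other end of Rfc4 had 73 and 53 reads (1.13, 0.781 to 1.64).

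Of the 3 genes of RPA, the trimer that coats unwound DNA, 1 was called lower. Rpa1, the large subunit, had 224 control (196 to 255) and 93 knockout reads at chromosome 11, 75348066 to 75348867, a region that also lies at an end of Smyd4. Its ratio was 0.648 (0.504 to 0.829). Rpa2 had 182 and 121 reads (1.04, 0.818 to 1.31) and Rpa3 300 and 188 (0.979, 0.811 to 1.18). Both of these intervals slightly overlapped that of Rpa1.

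At the enzymes of Okazaki fragment joining the choice of region mattered. Fen1, the flap endonuclease, had 231 and 119 reads (0.804, 0.639 to 1.01). Lig1, the ligase that seals the fragments, had the lowest ratio of all members at its gene end, 0.379 (0.151 to 0.836), from 33 control and 8 knockout reads at chromosome 7, 13310594 to 13311098. That region lies at the 3′ end of Lig1, beside Pla2g4c. The region at a listed Lig1 start (13278286 to 13279358) had 315 and 193 reads, a ratio of 0.957 (0.796 to 1.15).

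The nucleotide supply genes had no called member and the narrowest range, with ratios from 0.916 to 1.12 and a median log2 scaled ratio of 0.07. Rrm2, the S-phase subunit of ribonucleotide reductase, had 299 control and 195 knockout reads (1.02, 0.846 to 1.22), and its partner Rrm1 had 140 and 97 (1.08, 0.826 to 1.41). Tyms, thymidylate synthase, had 75 and 44 reads (0.916, 0.617 to 1.35). Tk1, the thymidine kinase of dividing cells, had 53 and 38 reads (1.12, 0.718 to 1.73) in a region shared with Afmid. There the control summit lay 557 bp and the knockout summit 1135 bp from the listed Tk1 start, so the counts are from different places. At its other end Tk1 had an 18-read region in the control list alone. Rrm2 had a second region at its 3′ end with 68 and 26 reads, a ratio of 0.597 (0.365 to 0.951).

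**Figure D4:**
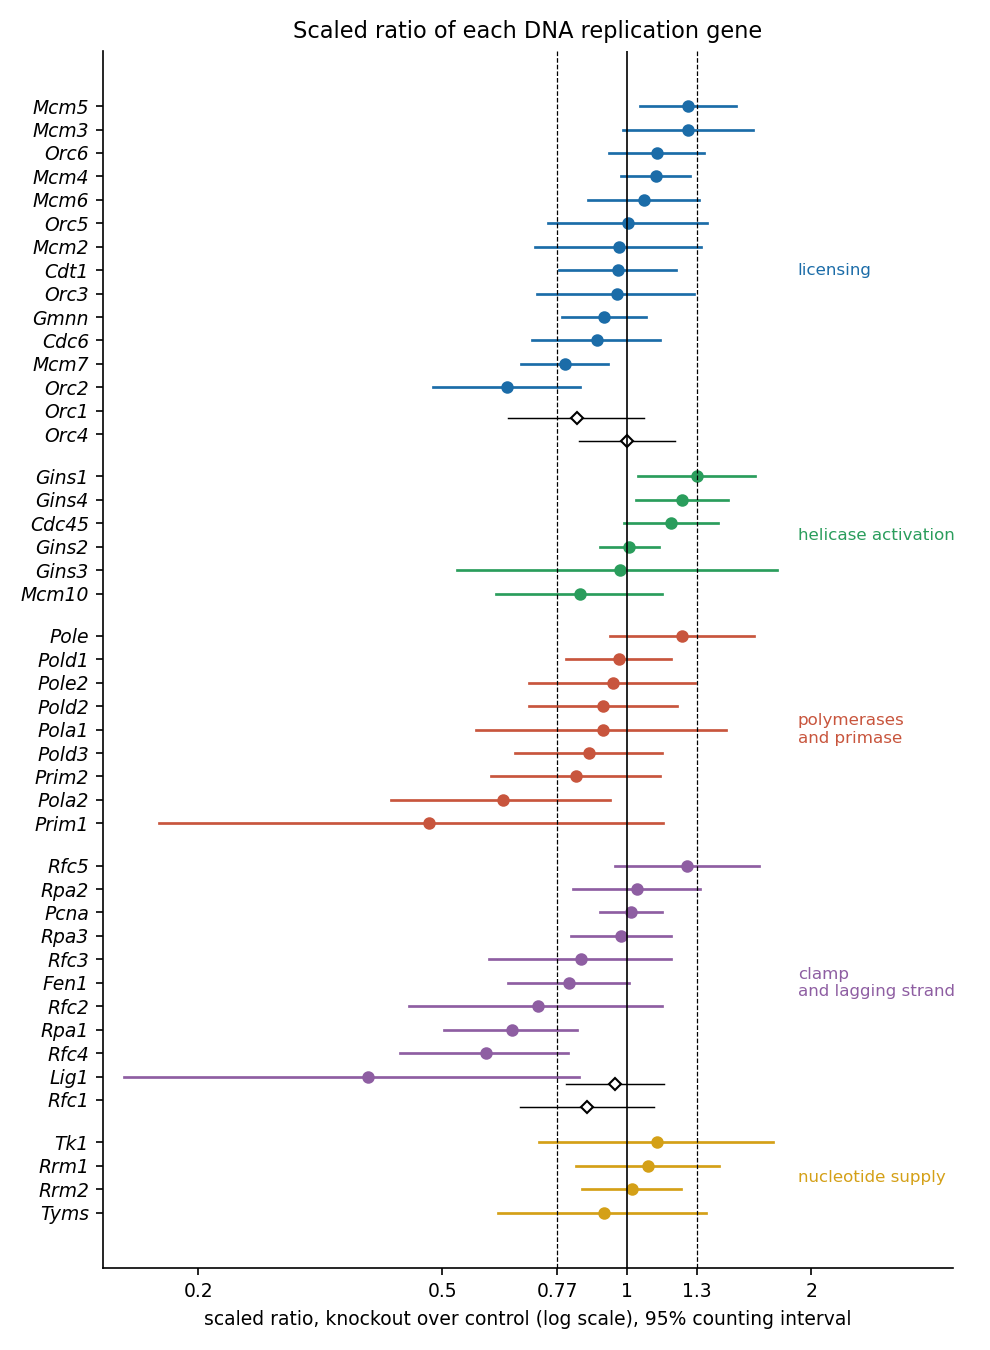
Scaled ratio of knockout over control (log axis) with its 95% counting interval for each DNA replication gene, by role; filled circles are gene-end regions and open diamonds are regions at a listed start, shown where they differ. Dashed lines mark 1.3-fold. For Lig1 the circle stands at 0.379 and the diamond at 0.957.

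In the comparison of roles, 4 of 10 clamp and lagging strand genes were called lower, or 3 of 10 with Lig1 at its start site. The share was 2 of 9 for polymerases and primase and 1 of 13 for licensing. It was 0 of 6 for helicase activation and 0 of 4 for nucleotide supply. Over all genes 11.8% were called lower, and the roles are small beside that share. When the deposited fold enrichments, which divide by the local background around each peak, were compared in place of scaled summit reads, Orc2 (0.818), Rfc2 (0.909), Rfc4 (0.858) and Rpa1 (0.822) were no longer called, Pola2 (0.752), Prim1 (0.525) and Lig1 (0.480) still were, and Tk1 (1.44) was called higher. On that measure 5.56% of all genes were called lower and 4.24% higher. The Tk1 folds were 2.54 in the control and 3.67 in the knockout library, from summits at different places. Read at their listed starts, where the motif was searched, the 9 members with an E2F match had log2 scaled ratios from −0.33 (Mcm7) to 0.33 (Mcm5), and 0 of them were called. The 28 without one ranged from −1.07 (Prim1) to 0.33 (Mcm3), and 5 were called lower. Of all 8639 genes with a shared region at a listed start, 12.0% were called lower and 11.6% higher. The medians of the 2 motif sets were −0.13 with and −0.05 without a match. Differences between the roles or the motif sets were not tested.

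**Figure D5:**
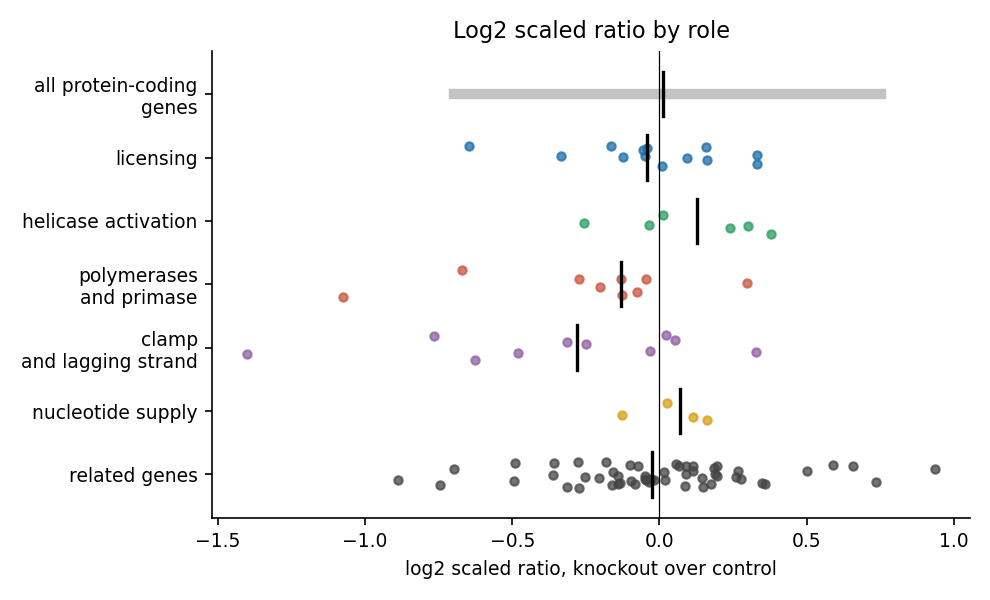
Log2 scaled ratio of each gene (points) by role and for the related genes, with medians as black bars. The grey bar spans the central 95% of all 10376 genes. The median of clamp and lagging strand genes is at −0.28 (−0.16 with Lig1 at its start site) and that of helicase activation genes at 0.13.

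A further list of 54 genes that serve or control replication was read beside the members. All 54 had a gene-end region in both lists. Of these, 5 were called lower and 5 higher (9.26% each), below the 11.8% and 12.2% of all genes. The counting interval lay below 1 for 6 (11.1%) and above 1 for 7 (13.0%), more than the 7.59% and 9.32% of all genes. The median log2 scaled ratio of the 54 was −0.02. The called genes are given as values, and whether the list differs from all genes was not tested. Timeless and Tipin, whose proteins form the fork protection complex, were both among the lower, with 109 control and 43 knockout reads (0.616, 0.422 to 0.884) and 136 and 52 reads (0.597, 0.425 to 0.828). The region of Timeless also lies at an end of Mip, with its control summit 5681 bp from the listed Timeless start, where no shared region was found, so the value is not that of the start. Mcmbp, which binds MCM proteins, had 81 and 28 reads (0.540, 0.338 to 0.839). Chaf1b, a chromatin assembly subunit, had 310 and 141 (0.710) and Uhrf1, a maintenance methylation factor, 358 and 163 (0.711). The higher genes were E2f4 (31 and 38 reads, 1.91, beside Elmo3), Dna2 (45 and 48, 1.67, beside Slc25a16), Tfdp1 (105 and 106, 1.58), Topbp1 (28 and 27, 1.51, interval 0.854 to 2.65) and Mcm9 (237 and 215, 1.42). E2f4 has no listed start, and its region, 1 of 2 at its ends, lies at the higher-coordinate end of the gene. Tfdp1 and Tfdp2 both encode dimer partners of E2F factors. Tfdp2 was not called at its gene end (86 and 50 reads, 0.908), far from its listed starts. At a listed start Tfdp2 had 200 and 83 reads, a ratio of 0.648 (0.496 to 0.841).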

How the data were processed

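ATAC-seq peak lists of 2 libraries were used, 1 per genotype. Trimmomatic 0.39, Bowtie2 2.4.4, Picard 2.26.2, deepTools 3.5.1, MACS2 2.2.7.1 and mm10 are named in the submitters' processing notes, without roles or settings. For read shifting, duplicates and blacklists, nothing is given in the sources used here. Lists have no headers, and the authors deposited 1 per sample. From its values, the deposited fold is a ratio of summit pileup to local background, each plus 1. The deposited −log10 p and −log10 q describe that summit. The deposited score is a truncated multiple of the −log10 q and was not used.

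Summit reads are the whole number that, with the deposited fold, gives the deposited −log10 p as a Poisson tail; one was found for every peak (largest relative misfit 7.3e-06). Tested on simulated peaks, 100% of 1998 control and of 2000 knockout numbers were returned. Relative depth is the ratio of the lowest backgrounds (0.971 and 1.52 reads). Absolute depth is unknown. Reads lack molecular identifiers, so intervals cover counting error only. Peaks sharing at least 1 bp were merged. Each gene took its shared gene-end region with the most reads; 5 regions above 3000 reads were left out. Members, roles, lists, the threshold and the rule for genes given in full (past the threshold, with an interval leaving out 1, extreme in their role, with several gene-end regions or without any; related genes past the threshold) were chosen with earlier results of these data known. The values of other members were given more briefly. The results of 2 marker genes are not reported here. The promoters to print were picked after their values were seen. Cdc6 was replaced by Orc1 because its summits lie farther upstream than the 250 bases. Among those printed, both summits of Orc2, Mcm6 and Pcna lie after the start, so also outside the printed bases. Computation used pandas 2.3.3 and SciPy 1.17.1 with NumPy 2.4.6 under Python 3.11.15, and plots used matplotlib 3.10.9.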

Additional observations from a re-analysis of the deposited data

How the results depend on the processing

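With 10 other settings of region, overlap, peak filter, depth and measure, and with 2 other call rules, 84 of 94 summary values, those of 2 added settings included, stayed near the main one (a count within 1.5 times, a median within 0.05 of log2). Windows of 500 and 2500 bp, a reciprocal overlap, a −log10 q of at least 5, both depth scalings, summed regions and listed starts moved none of them, although 2500 bp and listed starts each turned Lig1 to 0.957. The depth scalings could not move a median, as they shift every log2 ratio by −0.011 and −0.025, less than the 0.05 allowed. The windows, reciprocal overlap and peak filter returned the same ratio for nearly every member that kept one, so little could move there. Of 396 ratios of single members, 392 stayed inside the main interval and 0 called ones changed direction; besides Lig1, only Gmnn (1.07) and Rfc4 (0.858) left it, both with deposited folds. With the ratio of deposited folds the members' median was 0.0066 with 3 called lower and 1 higher, and the related genes' median was 0.0425 with 2 called lower. With regions of 1 gene alone, 3 related genes were called higher. At 1.5-fold, 3 related genes were called lower. By the interval in place of the fold, 3 members were higher. Of 2 settings chosen after seeing the data, at least 100 control reads left 3 members called lower, and a depth factor rounded to 3 digits made 1 member, Gins1, called higher. The cause of these moves was not tested. Few reads limit Prim1, Gins3 and Lig1 most. No paired analysis was possible because each genotype has 1 library.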

Other observations

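Inside the outer ends of the DNA replication genes, away from gene ends and listed starts, 21 further regions were listed, of which 13 were shared (61.9%), 6 were listed for the control only (28.6%) and 2 for the knockout only (9.52%). Over all 29076 merged regions these shares were 63.6%, 23.4% and 13%, close to those of the members. They were weak, with 8 to 82 control reads where listed. The region inside Rfc2 (chromosome 5, 134592818 to 134593513) was the strongest, with 82 control and 42 knockout reads, more than at its gene end. A region inside Cdc45 (chromosome 16, 18785224 to 18786121) had 40 control and 11 knockout reads (scaled ratio 0.429, interval 0.199 to 0.853), while the gene-end region of Cdc45 stood at 1.18. A region inside Lig1 (chromosome 7, 13302740 to 13303332) had 23 and 27 reads, a ratio of 1.83 (1.01 to 3.35). Rrm1 had a 28-read region (18.6 to 40.5) in the control list alone at chromosome 7, 102443504 to 102444448. Prim2 had 4 such regions in both lists, with 15 to 63 control reads. A count missing from 1 list can lie below the peak threshold, so absence there does not show closed chromatin.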
